A study of Mus musculus with 7 samples.

Results

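The subject is a group of genes of the inflammatory response, read on all 7 arrays of the series: the cytokine genes Tnf, Il1a, Il1b, Il1rn and Il6, and the activation genes Ptgs2, Acod1, Nos2 and Gpr84. They were chosen by symbol, as the probe sets annotated to one of these symbols alone. These are 9 genes with 12 probe sets, of 12393 genes and 22690 probe sets on the array. All RNA came from mouse liver cells, with fetal liver named in the feeder title, and was hybridised to 1 array per sample. The samples are a layer of feeder cells (n = 1), liver endothelial progenitors before sorting, called unsorted here (n = 1), and the progenitors' fractions with and without the surface antigen Sca1 (Sca1+, n = 2, and Sca1-, n = 3). The labels give no genotype, strain, age or treatment for any group, and the title of Sca1- replicate 1 names endothelial cells without the word progenitor. Sorted arrays whose titles carry a sample number of 2 or 3 are called the second deposit set here (Sca1+ replicate 2, Sca1- replicates 2 and 3). The other sorted arrays, both replicate 1, are the first set, and what divides the sets is not given in the labels. The feeder and unsorted titles carry no number either and are drawn with the first set. The feeder array lies in a table of its own under another platform name, so values set against it cross separate tables.

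Activated macrophages, neutrophils and stromal cells answer microbial products or tissue damage through the transcription factor NF-kB, which switches on Tnf, the interleukin-1 genes and Il6 together with enzymes that make short-lived mediators. Il1a and Il1b encode agonists of the interleukin-1 receptor and Il1rn its antagonist. In the liver, resident macrophages make Tnf and Il6, and Il6 acts on hepatocytes to raise acute-phase proteins. Ptgs2 encodes the inducible cyclooxygenase of prostaglandin synthesis, Nos2 the inducible nitric oxide synthase, Acod1 the enzyme that makes itaconate from aconitate, and Gpr84 a receptor for medium-chain fatty acids that is raised in activated myeloid cells.

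The starts of 4 of these genes are shown because they are the 4 members that were lower in the second deposit set, as described further on. Each line gives the 250 bases before and 50 after the RefSeq start (GRCm38.p6), read 5' to 3' on the gene's strand. Capitals mark matches to a kB-like motif, GGNNNTTCC on either strand, and to the TATA motif, TATAAA on either strand.
Acod1, chr14:103046762-103047061, plus strand: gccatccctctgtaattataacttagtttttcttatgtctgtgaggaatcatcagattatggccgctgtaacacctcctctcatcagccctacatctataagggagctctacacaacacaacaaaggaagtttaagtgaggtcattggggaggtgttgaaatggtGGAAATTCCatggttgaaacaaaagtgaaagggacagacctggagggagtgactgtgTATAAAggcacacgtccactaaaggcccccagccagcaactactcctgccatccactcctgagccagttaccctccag
Il1b, chr2:129371090-129371389, minus strand: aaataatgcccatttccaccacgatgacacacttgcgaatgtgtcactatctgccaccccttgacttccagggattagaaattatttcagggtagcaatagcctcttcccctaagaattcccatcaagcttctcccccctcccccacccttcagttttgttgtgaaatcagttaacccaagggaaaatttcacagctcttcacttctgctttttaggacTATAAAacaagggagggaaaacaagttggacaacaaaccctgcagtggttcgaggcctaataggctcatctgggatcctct
Gpr84, chr15:103310389-103310688, minus strand: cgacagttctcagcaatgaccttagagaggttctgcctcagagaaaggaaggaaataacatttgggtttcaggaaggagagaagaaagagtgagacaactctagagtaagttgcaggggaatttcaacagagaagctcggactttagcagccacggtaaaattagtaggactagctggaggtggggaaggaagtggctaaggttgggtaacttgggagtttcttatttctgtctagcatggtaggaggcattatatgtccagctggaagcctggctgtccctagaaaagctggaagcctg
Tnf, chr17:35201958-35202257, minus strand: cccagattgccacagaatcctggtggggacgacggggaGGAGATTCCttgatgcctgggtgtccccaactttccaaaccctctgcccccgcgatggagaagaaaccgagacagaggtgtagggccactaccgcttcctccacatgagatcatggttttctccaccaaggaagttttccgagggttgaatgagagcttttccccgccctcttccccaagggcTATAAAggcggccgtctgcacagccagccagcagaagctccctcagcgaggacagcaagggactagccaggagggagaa
The kB-like match GGAAATTCC began 85 bases before the start of Acod1, and GGAGATTCC began 212 bases before that of Tnf. TATAAA began 28 bases before the start of Acod1, 31 before that of Il1b and 29 before that of Tnf. Neither motif was found in the Gpr84 window, and the kB-like motif was not found in that of Il1b. Of 32851 promoter windows of this length, 18.5% held the kB-like motif and 13.6% the TATA motif, so a match is common and is a description of letters only. No promoter was listed for Nos2, and 8 of the 9 genes had one.

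Signals below were brought to one trimmed mean, 500, on each array (2% trimmed at either end). Bacterial control probe sets, whose transcripts are taken to be absent from the samples, set a background: the highest of them reached between 50.8 and 170 on an array. Probe sets at the ends of Actb were taken as a reading of RNA quality, since the 3' end outweighs the 5' end where transcripts are truncated. That quotient was 2.37, 1.87 and 1.91 on the second-set arrays and 6.83 and 13.5 on the first-set sorted arrays, with 1.01 on the unsorted and 1.03 on the feeder array. Of 17 endothelial markers on the array, between 4 and 14 exceeded a signal of 100 on any one array. The 14 is the unsorted array, where a signal of 100 lies under the highest control, 170. The brightest of them was Eng, at 749 on Sca1+ replicate 2, and Pecam1 had at most 206. Of 16 macrophage and monocyte markers, 13 or 14 exceeded 100 on each of the 7 arrays. Of the markers of resident macrophages, Marco, Cd163 and Clec4f reached at most 21.8, 53.8 and 136. Adgre1 ran from 1812 to 16333 and Mertk from 381 to 2094. These are mixtures of cells, and fewer cells of a type cannot be told apart from less RNA per cell.

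**Figure D1:**
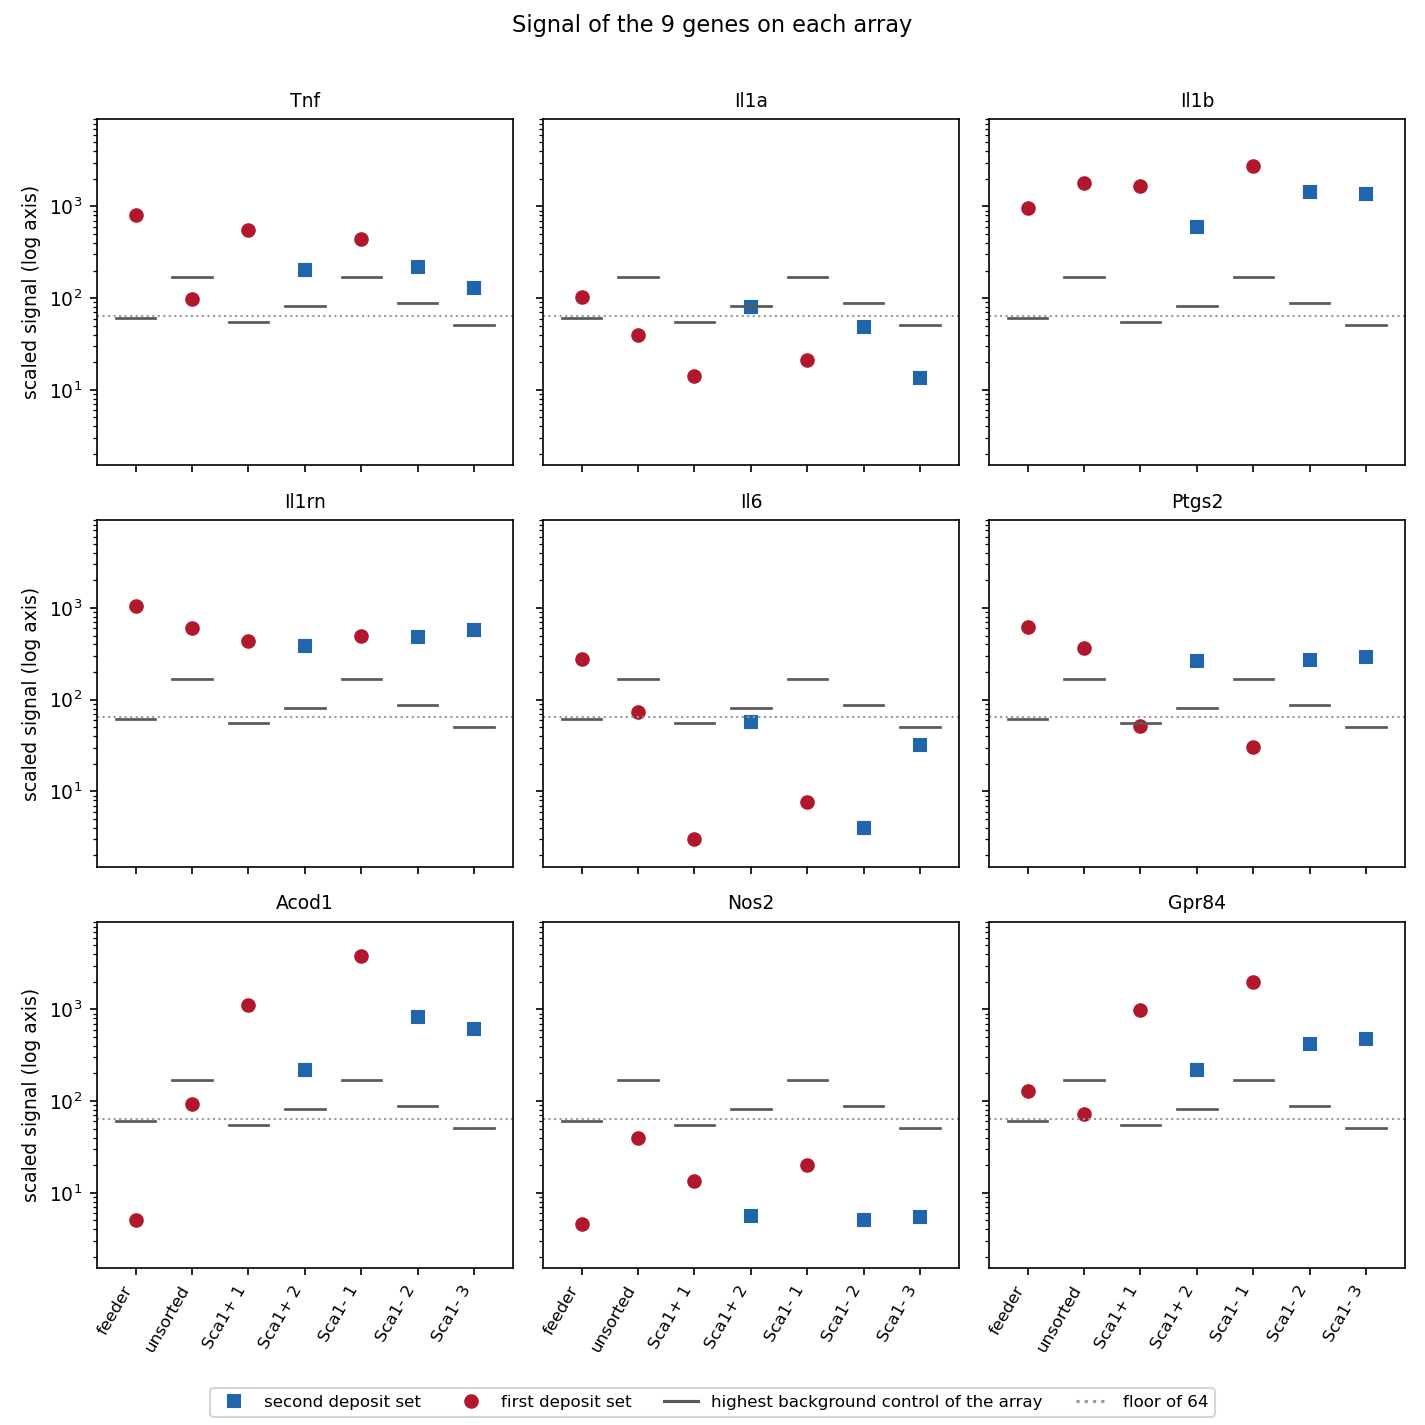
Scaled signal (log axis) of the probe set used for each of the 9 genes on each array. Squares are second-set and circles first-set arrays, the grey bar is the array's highest background control and the dotted line the floor of 64. Il1b and Il1rn lie above the control on all 7 arrays, and Nos2 on none.

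Among the interleukin-1 genes, the agonist Il1b was read clearly on every array. Its signal was 974 on the feeder array and 1789 on the unsorted array, with 1686 and 597 in Sca1+ and 2788, 1427 and 1353 in Sca1- progenitors. The lowest of the 7 was Sca1+ replicate 2 and the highest Sca1- replicate 1, and the fractions overlapped. The other agonist, Il1a, had 104 on the feeder array and 39.8 on the unsorted array, with 14.2 and 79.8 in Sca1+ and 21.2, 48.2 and 13.4 in Sca1- progenitors. It exceeded the background control on the feeder array alone.

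The antagonist Il1rn, read with probe set 1451798_at, varied least of the 6 genes that could be tested, by standard deviation within each fraction. Signals were 1056 for the feeder and 602 for the unsorted array, with 441 and 380 in Sca1+ and 489, 477 and 580 in Sca1- progenitors. The SD of the log2 signal was 0.15 in Sca1+ (n = 2) and 0.15 in Sca1- (n = 3). Both Sca1+ arrays lay below every Sca1- array.

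For Tnf, which encodes tumour necrosis factor, the feeder array stood highest, and the unsorted array was the only one under its background control. The feeder signal was 813, the unsorted 97, the Sca1+ signals 560 and 201, and the Sca1- signals 441, 218 and 127.9. The fractions overlapped, and both first-set sorted arrays lay above the 3 second-set arrays. Il6 was read above background on the feeder array alone, at 275. It had 73.4 on the unsorted array, 3 and 57 in Sca1+ and 7.6, 4 and 31.8 in Sca1- progenitors.

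Acod1 spanned the widest range among the sorted arrays of the 6 genes. Signals were 5 on the feeder array and 93.4 on the unsorted array, with 1127 and 216 in Sca1+ and 3778, 835 and 605 in Sca1- progenitors. Every sorted array exceeded both the unsorted and the feeder array. Gpr84 had 130 on the feeder array and 72.8 on the unsorted array, with 990 and 221 in Sca1+ and 1978, 419 and 471 in Sca1- progenitors. Its sorted arrays, too, all stood above the other 2, and the fractions overlapped for both genes.

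Ptgs2, read with probe set 1417262_at, had 627 on the feeder array and 365 on the unsorted array, with 51.2 and 261 in Sca1+ and 30.6, 269 and 294 in Sca1- progenitors. The 2 low values are the first-set arrays, both under their background control. Nos2 stayed at 39.6 or less on all 7 arrays: 4.6 on the feeder, 39.6 on the unsorted array, 13.6 and 5.6 in Sca1+ and 20, 5 and 5.4 in Sca1- progenitors. It was therefore not read above background in any group.

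Sca1+ progenitors were set against Sca1- progenitors to see how the members differ with Sca1. Of the 9 genes, 6 had a signal above 100 on 2 or more of the sorted arrays and were tested among all 8591 such genes, while Il1a, Il6 and Nos2 were not. None of the 6 passed, where 0% of all genes tested did (limma with group as the only term, log2 scale with a floor of 64, Benjamini-Hochberg). No member had an unadjusted p under 0.05 either, which 2.29% of genes reached as lower and 1.11% as higher in Sca1+. The median difference of the 6 was -0.53, against 0.07 for all genes tested.

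Acod1 had the largest difference of the 6, at -1.33 ± 0.97 (SE, adjusted p = 1, limma). The fractions overlap because Sca1+ replicate 1, at 1127, lies above Sca1- replicates 2 and 3. Within each deposit set, however, the Sca1+ array was lower, with a difference of -1.74 in the first set (1 array against 1) and of -1.72 in the second (1 against 2). With the deposit set as a block the difference was -1.73 ± 0.27 with an adjusted p of 0.0566 by limma, so it did not pass. In that fit 0.989% of all genes passed as lower and 0% as higher in Sca1+.

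Gpr84 was at -0.64 ± 0.89 without the block and at -1.0 ± 0.26 with it (adjusted p = 0.202, limma). Its within-set differences were -1.0 and -1.01. Without Sca1+ replicate 2 the unblocked difference was 0.44, and without Sca1- replicate 1 it was 0.07, so its direction rests on these arrays when the set is not a term. For Il1b the difference was -0.80 ± 0.58, and -1.01 ± 0.24 with the block (adjusted p = 0.171, limma). The within-set differences were -0.73 and -1.22.

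**Figure D2:**
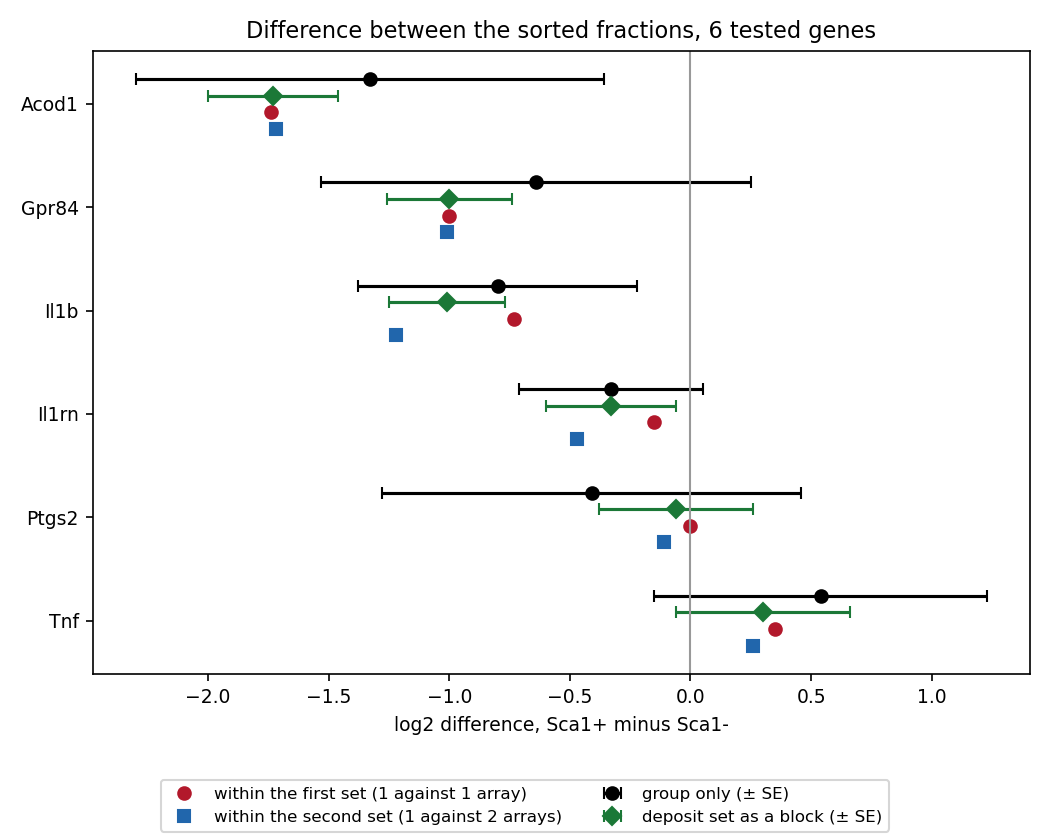
Log2 difference, Sca1+ minus Sca1-, of the 6 tested genes in each fit (point and SE) and within each deposit set (no error, 1 against 1 and 1 against 2 arrays). Acod1, Gpr84, Il1b and Il1rn lie left of 0 within both sets and Tnf lies right of 0, and none passed the adjusted test.

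Il1rn differed by -0.33 ± 0.38 (-0.33 ± 0.27 with the block), and by -0.15 and -0.47 within the sets. In all, 4 of the 6 tested genes were lower in Sca1+ within both sets, as were 24.6% of all genes tested. One of the 6, Il1rn, had both Sca1+ arrays below every Sca1- array, as had 8.45% of all genes tested. This held for the probe set used alone, since the fractions overlapped on the other Il1rn probe sets. Within the sets 1423017_a_at differed by 0.12 and 0.39, sizes that depend on the floor, and 1425663_at by -1.02 and -0.04. Tnf lay the other way, at 0.54 ± 0.69, 0.30 ± 0.36 with the block, and 0.35 and 0.26 within the sets, as 32.4% of genes were higher within both. Without Sca1+ replicate 1 the unblocked Tnf difference was -0.20. Ptgs2 differed by -0.41 ± 0.87 without the block and -0.06 ± 0.32 with it, and its first-set values are both at the floor. Without Sca1+ replicate 1 it was at 0.60.

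Granulocyte markers, taken as a sum, were lower on both Sca1+ arrays than on any Sca1- array, though Ngp and Csf3r overlapped singly. The summed signal of 13 granulocyte markers was 139042 and 10133 in Sca1+, against 591161, 233637 and 207673 in Sca1- progenitors, with 11 and 10 of the 13 above 100 in Sca1+ and all 13 on each Sca1- array. The lowest of the 13 on a sorted array was Cxcr2, at 25.2 on Sca1+ replicate 2. The summed macrophage and monocyte markers were 177028 and 121399 in Sca1+, against 156130, 115948 and 103806 in Sca1- progenitors, and overlapped. Singly, Adgre1, Cd68, Cd14, Fcgr1 and Ly86 were higher on both Sca1+ arrays than on any Sca1- array, and the others overlapped. With the deposit set as a block, the median difference of the 14 tested was 0.77. The part of these cells in the Acod1, Gpr84 and Il1b values was not tested.

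The deposit sets were compared among the sorted arrays, since each set holds both fractions. Of the 6 tested genes, 4 fell and 1 rose in the second set (limma with fraction and set as terms, 5 sorted arrays, Benjamini-Hochberg over 8591 genes). Across all genes tested 7.53% fell (647) and 11.7% rose (1002), a split that became 933 against 891 after quantile normalization and 769 against 548 with median scaling. Those scalings put the median difference of all genes at -0.07 and -0.10, where it is 0.10 otherwise, and the directions of the 5 members held under each. Acod1 fell, with a log2 difference of -2.40 ± 0.26 (adjusted p = 0.00459, limma), and had 216, 835 and 605 on the second-set arrays against 1127 and 3778 on the first-set arrays. Gpr84 fell, at -2.16 ± 0.24 (adjusted p = 0.00507, limma), and had 221, 419 and 471 against 990 and 1978. For both genes every second-set array lay below every first-set array, as it did for 19.5% of genes tested.

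The cytokine genes Tnf and Il1b fell less. Tnf was at -1.43 ± 0.35 (adjusted p = 0.0373, limma), with 201, 218 and 127.9 in the second set against 560 and 441 in the first. Il1b was at -1.22 ± 0.24 (adjusted p = 0.0204, limma), with 597, 1427 and 1353 against 1686 and 2788. These calls are less firm: Tnf no longer passed without Sca1+ replicate 1 (adjusted p = 0.101), Sca1+ replicate 2 (0.0843), Sca1- replicate 1 (0.103) or Sca1- replicate 3 (0.135). Il1b no longer passed without Sca1- replicate 3 (adjusted p = 0.1).

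Ptgs2 went the other way and rose (adjusted p = 0.0118, limma), with 261, 269 and 294 in the second set against 51.2 and 30.6 in the first. Both first-set values lie below background, so the rise is at least 2.83-fold, and the fitted 2.09 ± 0.33 on the log2 scale depends on the floor. Ptgs2 also met the signal minimum through the second-set arrays alone. All 3 second-set arrays lay above both first-set arrays, as for 26.3% of genes tested. Il1rn was at -0.03 ± 0.27 (adjusted p = 0.945, limma).

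The sets also differ in the Actb quotient, taken here as a reading of RNA quality, and in the markers of other cells. The Actb quotient was 2.37, 1.87 and 1.91 in the second set against 6.83 and 13.5 in the first. The summed signal of 12 fibroblast and mesenchymal markers was 96099, 39480 and 36866 on the second-set arrays against 10515 and 5475 on the first-set arrays, with all 12 above 100 in the second set and 5 on each first-set array. Granulocyte markers summed to 10133, 233637 and 207673 against 139042 and 591161, and macrophage markers to 121399, 115948 and 103806 against 177028 and 156130. The part of RNA quality and of these cells in the set differences was not tested.

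**Figure D3:**
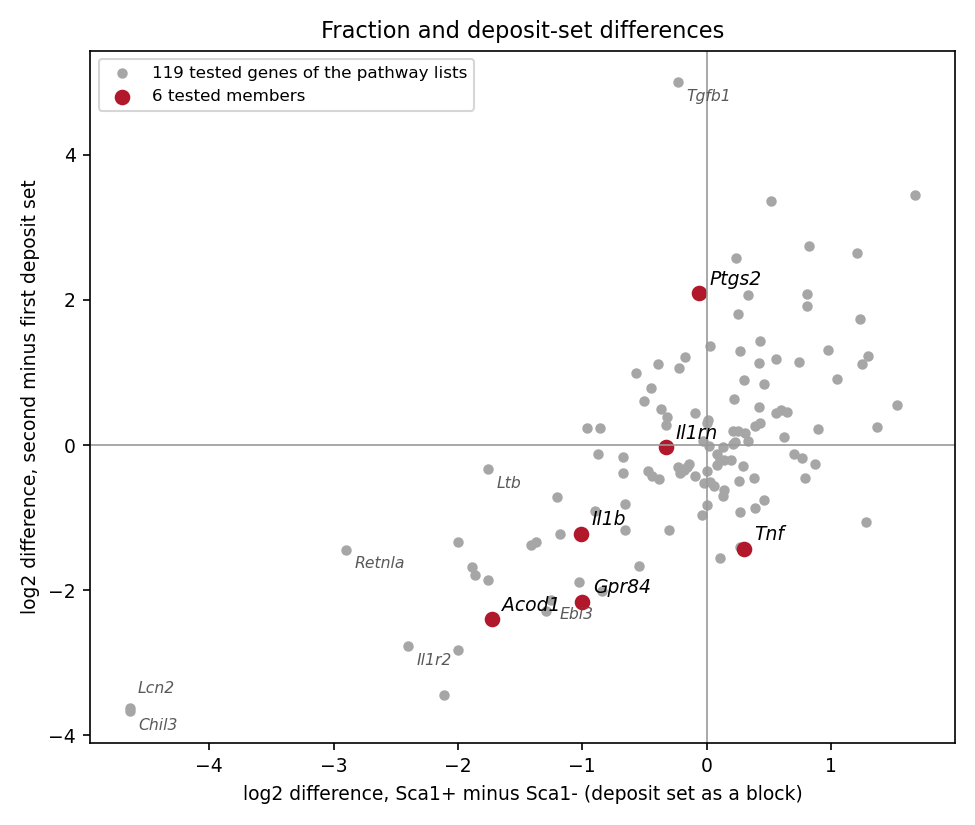
Log2 difference between the deposit sets (second minus first, vertical) against that between the fractions (Sca1+ minus Sca1- with the set as a block, horizontal) for the 6 tested members and the 119 tested genes of 7 pathway lists. Acod1, Gpr84 and Il1b lie below 0 on both axes, as does Il1rn, which is near 0 on the vertical at -0.03. Tnf lies below 0 on the vertical axis alone, and Ptgs2 near 0 on the horizontal axis with 2.09 on the vertical.

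Genes read by several probe sets did not give one answer. Il1rn probe set 1425663_at had 145, 108 and 207 on the second-set arrays against 292 and 593 on the first-set arrays, a log2 difference of -1.49. Probe set 1423017_a_at of the same gene had 163, 51.2 and 241 against 69.8 and 22.8, a difference of 1.03. Its signals of 51.2 and 22.8 lie below background and the sets overlapped, so this size depends on the floor. The probe set used, 1451798_at, lies between the others at 0.02 (all 3 as differences of plain means, without the fraction as a term). The Il1rn probe sets also split on the feeder array: 1423017_a_at read 1007 on the feeder against 547 on the unsorted array, and 1425663_at read 233 against 533. The second Ptgs2 probe set, 1417263_at, had 102, 53.4 and 100 in the second set against 5.4 and 87.3 in the first, and the sets overlapped. With the mean of its probe sets Ptgs2 differed by 1.15 ± 0.29 between the sets and did not pass (adjusted p = 0.0513, limma). Both Ptgs2 probe sets stood highest on the feeder array, at 627 and 641.

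**Figure D4:**
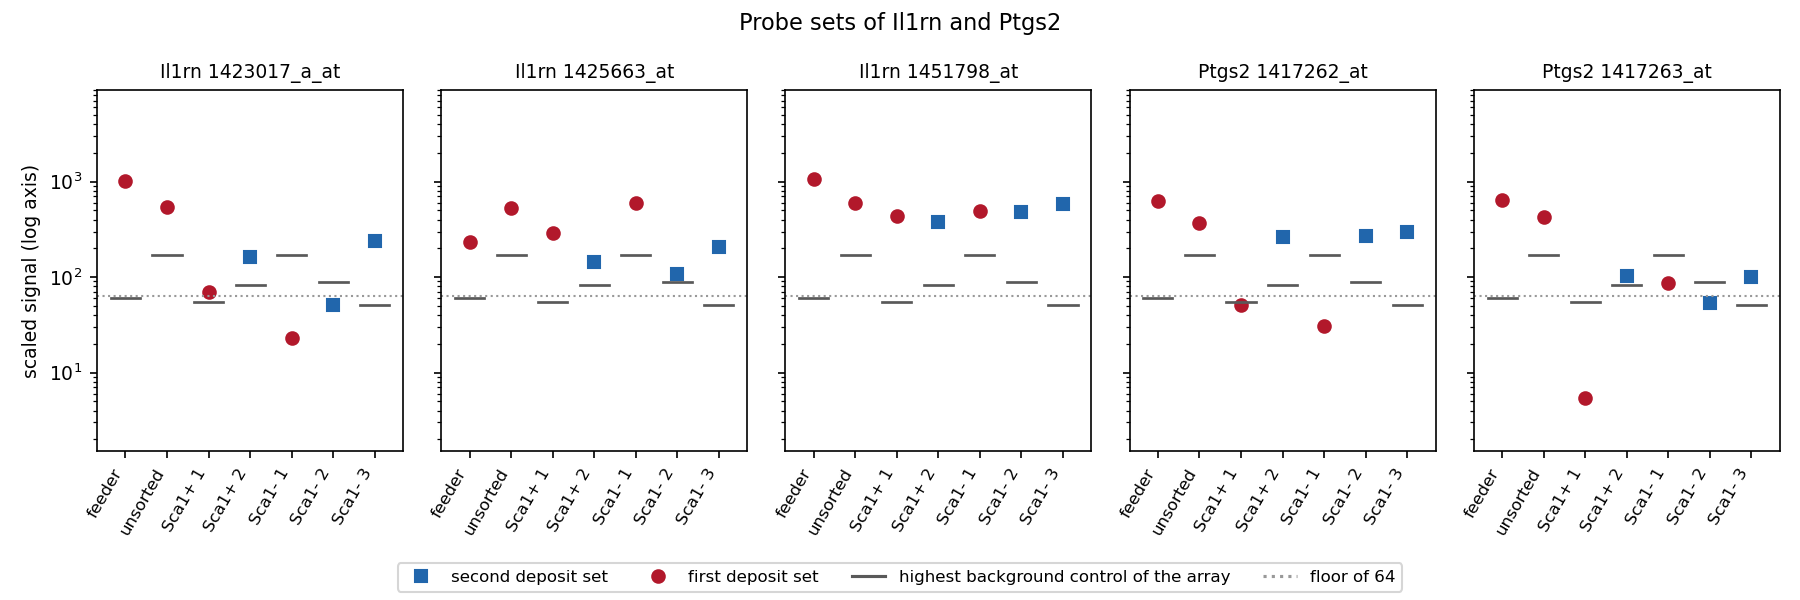
Scaled signal (log axis) of the 3 Il1rn and 2 Ptgs2 probe sets on each array, with squares for second-set and circles for first-set arrays, grey bars for the highest background control and a dotted line at the floor. The Il1rn probe sets order the arrays differently: the feeder array lies above the unsorted array on 1423017_a_at (1007 against 547) and below it on 1425663_at (233 against 533).

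The feeder layer was set against the unsorted progenitors and against the sorted arrays without a test, because it is 1 array in a table of its own. Tnf and Il6 stood at least 2-fold higher on the feeder than on the unsorted array, 2 of the 7 members above 100 on either, where 4.08% of genes did. Both exceeded 100 on the feeder array alone, so nothing is read from that count. Tnf had 813 on the feeder array against 97 on the unsorted array. The unsorted value lies under its background control of 170, so the feeder signal is at least 4.78-fold higher. Il6 had 275 on the feeder array against 73.4 on the unsorted array. That is at least 1.62-fold against the same control, so its place among the genes 2-fold apart rests on an unsorted value below background.

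Il1rn differed by 0.81 and Ptgs2 by 0.78 on the log2 scale, and with median scaling by 1.17 and 1.14. Il1b was at -0.88, with 974 on the feeder array against 1789 on the unsorted array. No fold is given for Gpr84 and Il1a, whose feeder signals of 130 and 104 are also under the unsorted control. With the probe sets used none of the 7 was at least 2-fold lower on the feeder, where 15.9% of genes were. Tnf, Il1a, Il6 and Gpr84 exceeded 100 on the feeder array alone and could not be lower there. Nothing is read from that count. After quantile normalization Il1b was at -1.12. The numbers of genes higher and lower depended on scaling, at 398 against 1548 here, 654 against 765 after quantile normalization and 870 against 694 with median scaling, which puts the median of all genes at 0.28 and not -0.13. Acod1 and Nos2 stayed under 100 on both arrays.

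Against the 5 sorted arrays, Tnf, Il1a, Il1rn, Il6 and Ptgs2 stood above every one on the feeder, and Acod1 and Gpr84 below every one. Across genes 26.2% stood above and 17.7% below. Tnf was no longer above with median scaling, and Il1a was not with the higher floor tried. Nor was Il1rn on probe set 1425663_at, with 233 against 292 and 593 on the first-set sorted arrays. Il1a and Il6 met the signal minimum on the feeder array alone and Acod1 on the sorted arrays alone, so nothing is read from their places beside those shares. The Il1a signal of 104 is under the control of Sca1- replicate 1, 170. The summed granulocyte markers were 5752 on the feeder array, with 8 of 13 above 100, and the summed macrophage markers 78622, with 13 of 16 above 100. The 12 fibroblast and mesenchymal markers summed to 77298 and all exceeded 100. The Actb quotient was 1.03 on the feeder array and between 1.87 and 13.5 on the sorted arrays. The hybridisation control cre read 14794 against 45164 to 111744. The part of these cells, of RNA quality and of hybridisation in these values was not tested.

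On the unsorted array Acod1, Gpr84 and Tnf were read below all 5 sorted arrays, 3 of the 6 members that exceeded the signal minimum, where 14.7% of genes did. These 3 exceeded it through the sorted arrays alone, so nothing is read from that count. For Tnf the unsorted control of 170 exceeds the lowest sorted signal, so its place below all 5 is not settled. Acod1 had 93.4 on the unsorted array, under its background control, against a geometric mean of 858 over the sorted arrays, which is at least 5.05-fold higher in the sorted arrays. Gpr84 had 72.8 against 611, at least 3.6-fold higher in the sorted arrays. Il1rn and Ptgs2, 2 of the 6, lay above all 5 sorted arrays, as did 37.4% of genes. That position depended on scaling, since neither lay above the sorted range after quantile normalization or median scaling. For Il1rn it also depended on the probe set, since 1425663_at read 533, below Sca1- replicate 1 at 593. Acod1 and Gpr84 stayed below the sorted range in each of the 6 other settings tried, and Tnf in all but the higher floor. Granulocyte markers summed to 65412 on the unsorted array, within the range of the sorted arrays, and macrophage markers to 82100, below it. The Actb quotient was 1.01 on the unsorted array and between 1.87 and 13.5 on the sorted arrays. The hybridisation control cre read 13550 against 45164 to 111744. The part of these cells, of RNA quality and of hybridisation in these values was not tested.

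The genes around these members were read from 7 pathway lists with 119 tested genes. With group as the only term none of them passed, and 7 were lower and 2 higher in Sca1+ at an unadjusted p under 0.05, which 2.29% and 1.11% of all genes tested reached. With the set as a block 8 fell and 0 rose, where 0.989% and 0% of all genes did. Of 10 tested further cytokine genes, 1 fell in that fit. Ltb, which encodes lymphotoxin beta, had 526 and 518 in Sca1+ against 2207, 1619 and 1372 in Sca1- progenitors, with no overlap. Its difference was -1.70 ± 0.39 without the block and -1.76 ± 0.26 with it (adjusted p = 0.0443, limma). Tnfsf13b, the B-cell survival factor BAFF, had 137 and 74.6 against 751, 298 and 183, a difference of -1.77 ± 0.68 that did not pass in either fit.

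Of 15 tested receptor genes 1 fell with the block, the interleukin-1 decoy receptor Il1r2. It had 383 and 6 in Sca1+ against 2299, 258 and 366 in Sca1- progenitors, and differed by -2.40 ± 0.32 in that fit (adjusted p = 0.0334, limma). The signal of 6, on Sca1+ replicate 2, is below background, so the size of this difference and of that between the sets depends on the floor. Its order over the sorted arrays is close to that of Acod1, with Sca1- replicate 1 highest and Sca1+ replicate 2 lowest. With the block the signalling receptor Il1r1 was at 0.33 ± 0.40 and its accessory chain Il1rap at 0.90 ± 0.43, neither of which passed. The prostaglandin receptor Ptger4 had 2303 and 1543 in Sca1+ against 367, 869 and 1063 in Sca1- progenitors, a difference of 1.43 ± 0.55 that did not pass.

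Among 11 tested inflammasome and maturation genes none passed in either fit. Casp1, which cleaves the Il1b precursor, was at 0.45 ± 0.41 and the sensor Nlrp3 at -0.58 ± 0.56. P2rx4, an ATP-gated channel, had 4512 and 3282 in Sca1+ against 1069, 1911 and 1765 in Sca1- progenitors, at 1.33 ± 0.43, also without passing. None of 31 tested NF-kB and MAPK signalling genes passed either, with a median of -0.10. Tnfaip2, a target of Tnf, was at -1.08 ± 0.44. Of 10 tested prostanoid and leukotriene genes 1 fell with the block: Lta4h, which makes leukotriene B4, differed by -1.89 ± 0.26 (adjusted p = 0.0363, limma), with 1723 and 418 in Sca1+ against 4983, 2049 and 1705 in Sca1-.

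Of 18 tested genes of arginine, nitric oxide and itaconate metabolism none passed in either fit. The arginases, which compete with nitric oxide synthase for arginine, lay on opposite sides. Arg1 had 9456 and 1810 in Sca1+ against 1555, 1505 and 1458 in Sca1- progenitors, at 1.46 ± 0.68. Arg2 had 1049 and 511 against 3336, 1042 and 1224, at -1.15 ± 0.62. Of 24 tested other activation genes 5 fell with the block. Retnla, a gene of alternatively activated macrophages, had 151 and 14.8 in Sca1+ against 1296, 426 and 428 in Sca1-, at -2.90 ± 0.29 (adjusted p = 0.0114, limma). The signal of 14.8 is below background, so this size depends on the floor. Lcn2 and Chil3, which granulocyte precursors also express, were both at -4.64. Lcn2 is itself 1 of the 13 granulocyte markers, whose median difference in that fit was -3.68.

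Between the deposit sets 18 of the 119 list genes rose and 16 fell, 28.6% in all, where 11.7% of all genes tested rose and 7.53% fell. Tgfb1, which encodes a cytokine that restrains inflammation, had 2110, 2469 and 2363 on the second-set arrays against 17.6 and 77.4 on the first-set arrays (adjusted p = 0.00125, limma). Both first-set values lie below their array's background control, so the rise is at least 23.8-fold. Ebi3, a subunit of interleukins of the IL-12 family, had 1016, 2296 and 2099 against 3932 and 10625, at -2.14 ± 0.22 (adjusted p = 0.00401, limma). Il1r1 rose at least 3.02-fold, its first-set values also lying below background (adjusted p = 0.0216, limma). Tgfb1 and Il1r1 met the signal minimum through the second-set arrays alone. Il6st, the signalling chain for Il6, rose by 1.91 ± 0.27 (adjusted p = 0.00869, limma). Il1r2 fell, at -2.77 ± 0.31 (adjusted p = 0.00485, limma). The prostacyclin synthase Ptgis rose by 3.36 ± 0.34 (adjusted p = 0.00402, limma), with 1 of its 2 first-set values under background, and Alox5ap of the leukotriene branch fell, at -1.89 ± 0.22 (adjusted p = 0.00527, limma). Cebpd, a transcription factor gene of the acute response, fell, at -2.28 ± 0.30 (adjusted p = 0.00699, limma).

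Feeder and unsorted arrays were compared over the lists in the same way. At least 2-fold lower on the feeder were 6 of 23 other activation genes, 5 of 20 genes of arginine metabolism, 4 of 14 cytokine genes, 3 of 13 prostanoid genes and 3 of 15 receptor genes, where 15.9% of all genes were. At least 2-fold higher were 2 of the cytokine, 1 of the prostanoid and 1 of the activation genes, where 4.08% of all genes were. None of 30 signalling genes and none of 11 inflammasome genes were 2-fold apart. Csf1, the macrophage growth factor, had 1885 on the feeder array against 739, a log2 difference of 1.35. Ltb had 35.8 on the feeder array, below background, against 415 on the unsorted array, which is at least 6.83-fold higher there. Arg2 had 266 against 920, a log2 difference of -1.79. The median differences of the 7 lists lay between -0.49 and 0.03, and that of all genes was -0.13.

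Genes whose pattern was most like that of a member were ranked among 9223 genes by Pearson's r between log2 signals. It was taken across the 6 arrays that share a table. With 6 arrays that share deposit sets and RNA quality, a high r is a description. Nearest to Acod1 was Cs, which encodes citrate synthase (r = 0.998), with 1822 on the unsorted array, 4165 and 2390 in Sca1+ and 6132, 3559 and 3207 in Sca1- progenitors. Dnmbp (0.993) and Bcs1l (0.989) came next. Gpr84 was closest to Prelid1 (0.997), Ints5 (0.996) and Hnrnpc (0.996), and Il1b to Ap4b1 (0.991), Armt1 (0.984) and Rasa2 (0.982). For Ptgs2 the nearest were Tgfb1 (0.998), Sdhc (0.998) and Wbp1l (0.998). Ptgs2 and Tgfb1 were both under background on the first-set sorted arrays, so their r rests partly on values at or near the floor. Tnf was closest to Siah2 (0.995), Dnttip1 (0.989) and Ugcg (0.984), and Il1rn to Abhd16a (0.975), 4932438A13Rik (0.965) and Mis12 (0.964). No member was among the 3 nearest of another.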

How the data were processed

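The deposited values are signal intensities per probe set on a linear scale, with a trimmed mean of 250 on each array as the authors left them. GCOS is named for the 3 second-set arrays per the submitters' processing notes, and software for the remaining arrays was not given in the sources used here. The array holds 22690 probe sets: 20380 name 1 gene and were used, 691 name several, 1555 none and 64 are controls. After rescaling, signals below a floor of 64 were raised to it and log2 was taken. Where a gene had several probe sets, the brightest on average (log2, the 6 arrays that share a table) stood for it. limma 3.58.1 in R 4.3.3 (lmFit, eBayes with an intensity trend) was run on genes with a signal over 100 on 2 or more sorted arrays, with 3 residual degrees of freedom for group alone and 2 with the deposit set, Benjamini-Hochberg at 0.05. The fit of the sets used the 5 sorted arrays. No test crosses the separate tables. "At least" folds use, for each array, the higher of the dim signal and its highest bacterial control.

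The number of arrays limits the precision. The labels name no separate animals or cultures, so p-values measure only how these samples vary, and that variation may be technical. Members, lists and motifs were chosen with earlier results of these data known. In each list up to 4 genes with the smallest p could be named, and for the sets and the feeder up to 3 with the largest difference and a signal over 300. The fits were tested on simulated data. Alternatives were other scalings, floors, a pseudocount of 32, filters, probe set rules, no trend, blocks and leaving out each sorted array. Promoters are from RefSeq (GRCm38.p6). Figures were drawn with matplotlib 3.10.9.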

Additional observations from a re-analysis of the deposited data

How the results depend on the processing

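None of the members tested (5 with a signal minimum of 300, 9 with no filter, 6 otherwise) passed between Sca1+ and Sca1- in any of the 18 other settings tried. Over all genes 0 passed, against 1 with no filter, 85 with the deposit set as a block and 80 with the replicate block, and 0 when any sorted array was left out. Leaving out 1 array moved the difference between -0.20 and 1.28 for Tnf, -1.42 and 0.60 for Ptgs2, and -1.73 and 0.44 for Gpr84. Direction turned for Tnf (-0.20) and Ptgs2 (0.60) without Sca1+ replicate 1, and for Gpr84 without Sca1+ replicate 2 (0.44) or Sca1- replicate 1 (0.07). Acod1 ranged from -2.52 to -0.14, Il1b from -1.55 to -0.06 and Il1rn from -0.44 to -0.22, and these kept their sign without any 1 array. With the replicate block Acod1 was at -1.85 ± 0.46 (adjusted p = 0.0736, limma). Replicates 1 and 2 of Sca1+ and of Sca1- deviated alike from their own mean (r = 0.55). With 2 samples per mean, the crossed r of -0.55 follows by construction. Replicate 1 is the first and replicate 2 the second deposit set here, so this r cannot tell a pairing from the set difference. The labels do not say that a number pairs samples, and there are only 2 pairs.

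Between the deposit sets 1649 genes and 5 members passed. The higher floor left 510 genes and 3 members (Acod1, Gpr84, Ptgs2), no filter left 99 genes and 1 member (Gpr84), and testing all probe sets gave 2666. Leaving out 1 array gave 688 (without Sca1- replicate 3) to 3421 genes (without Sca1+ replicate 2), and 3 to 5 members. It gave 3194 genes without Sca1+ replicate 1. Adjusted p by limma was 0.0851 for Tnf and 0.0528 for Il1b with the higher floor. With no filter it was 0.177 for Tnf, 0.0868 for Il1b, 0.0741 for Ptgs2 and 0.06 for Acod1. Gpr84 passed in all 15 settings (highest adjusted p = 0.0494). Il1rn, which did not pass, ranged from -0.22 to 0.11 when 1 array was left out, at 0.11 without either Sca1+ replicate and 0.02 without Sca1- replicate 2. The cause was not tested.

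Feeder genes 2-fold from the unsorted array numbered 1946. They were 654 higher and 765 lower after quantile normalization, 870 and 694 with median scaling, and 867 (260 and 607) with the higher floor. Unsorted genes above the sorted range were 3724, against 2162 after quantile normalization and 1176 with median scaling, which put 3432 below it where 1465 were. Feeder values rest on 1 array in a separate table, and signals near the background controls are limits only.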
